A study of Oryctolagus cuniculus with 6 samples.

Results

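A group of 7 microRNAs (miRNAs) of stratified, glandular and gut-type epithelia, outside the miR-200 and miR-183 clusters, was followed in extracellular vesicles of rabbit seminal plasma. They were chosen by name: miR-203-3p, miR-205-5p, miR-375-3p, miR-192-5p, miR-194-5p, miR-215-5p and miR-31-5p. Of them, 5 matched a row among the 577 mature miRNAs of the table, and miR-203-3p and miR-192-5p were not analysed here. Of the 5, 4 reached the level needed for testing, 10 units or more in 3 or more of the 6 libraries, and miR-215-5p did not.

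All donors were California x New Zealand white males, 10 to 12 months old, with no genotype or treatment given in the labels. From 14 males collected 8 times within 1 month, the study took 3 whose semen was of high quality and 3 whose semen was of low quality. The labels name these groups Fertile and Sub-fertile (3 biological replicates each, 2.5 mL of seminal plasma per replicate). The grouping thus rests on semen measurements, and no record of fertility was used here.

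Vesicles in seminal plasma are shed by several parts of the male tract, including the epididymis and the accessory glands, and carry miRNAs of the releasing cells. A miRNA guides a silencing complex to transcripts that pair with its seed, the bases near its 5′ end. In mouse and human, miR-205 marks basal cells of stratified and gland epithelia and represses the ZEB factors, which switch off epithelial genes. In the same species miR-375 marks islet, neuroendocrine and secretory gland cells, and miR-192, miR-194 and miR-215 mark intestine, kidney and liver epithelium and are induced by p53 in human cells. The mature sequences are not printed, since no sequence table was used here.

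Levels are the deposited values, counts divided by library depth and by a scaling factor (scaled CPM). Recovered whole counts per library ran from 129387 to 772619, and 1 count was worth 1.33 to 6.24 units. Sub-fertile replicate 1 was the shallowest library and stood apart in its profile. Its summed level of the germ and multiciliated cell miRNAs miR-34b-5p, miR-34c-5p and miR-449a-5p was 15767, against 1219 to 2965 in the other 5 libraries. Comparisons between the groups are therefore also given without this library. Its part in the results was not tested beyond that.

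The measured members spanned a wide range of abundance in one fixed order. On the scaled CPM scale the mean level over 6 libraries was 12164 for miR-205-5p, 2707 for miR-375-3p, 448 for miR-31-5p, 47.0 for miR-194-5p and 1.93 for miR-215-5p. No member overlapped its neighbour in this order in any library. The lowest miR-205-5p value was 2.11 times the highest miR-375-3p value. The corresponding factors were 2.29 between miR-375-3p and miR-31-5p, 3.20 between miR-31-5p and miR-194-5p, and 4 between miR-194-5p and miR-215-5p. Mature miRNAs are of similar length, but ligation and amplification differ between sequences, so levels of different miRNAs are compared only in this coarse sense.

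**Figure D1:**
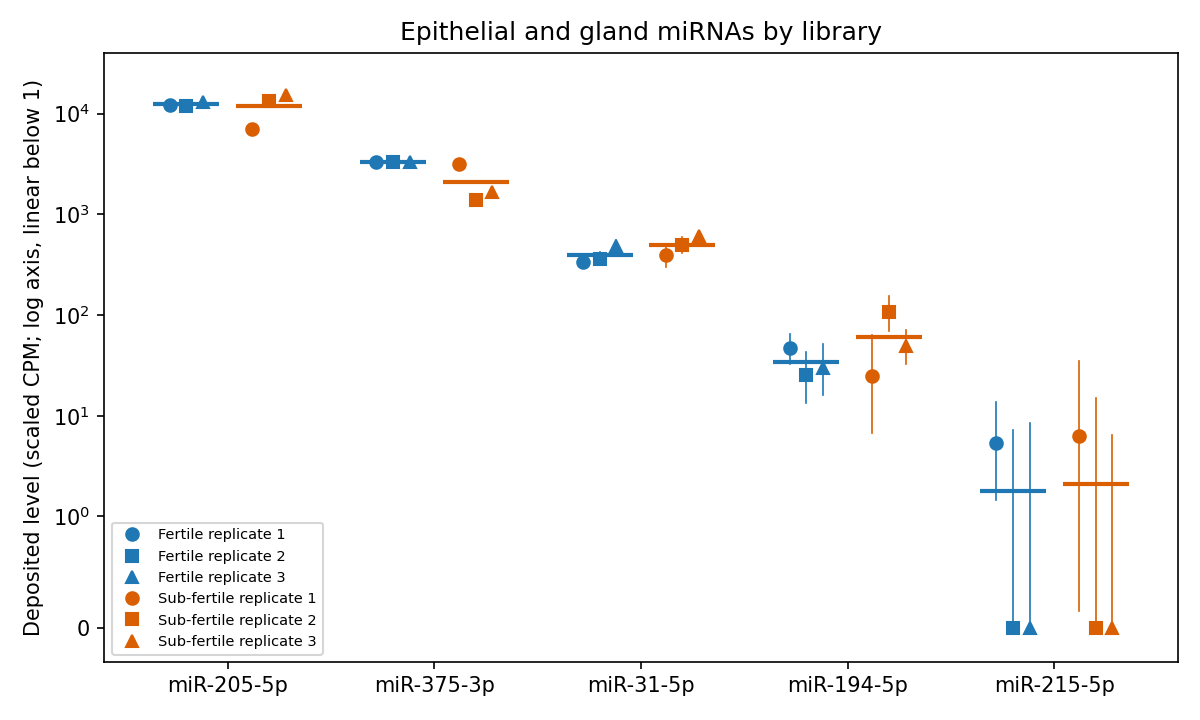
Deposited level (scaled CPM, log axis, linear below 1) of the 5 measured members in each library. Symbols mark replicates, horizontal bars group means (n = 3) and thin lines exact 95% Poisson intervals for counting error; the members keep the same order in every library, and miR-215-5p is at 0 in 4 of 6.

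By rank within a library, miR-205-5p lay at 18 to 26 of 577 and miR-375-3p at 40 to 55. The ranks of miR-31-5p were 79 to 96 and those of miR-194-5p 125 to 191. Of the 577, only 368 had a value above 0 in any library. All miRNAs at 0 in a library shared 1 rank there, which lay between 272 and 311. Together the 5 members held 1.55% ± 0.0583 of all counts in the Fertile group against 1.49% ± 0.150 in the Sub-fertile group (SD, n = 3 each). The Sub-fertile share was 1.58% without Sub-fertile replicate 1.

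**Figure D2:**
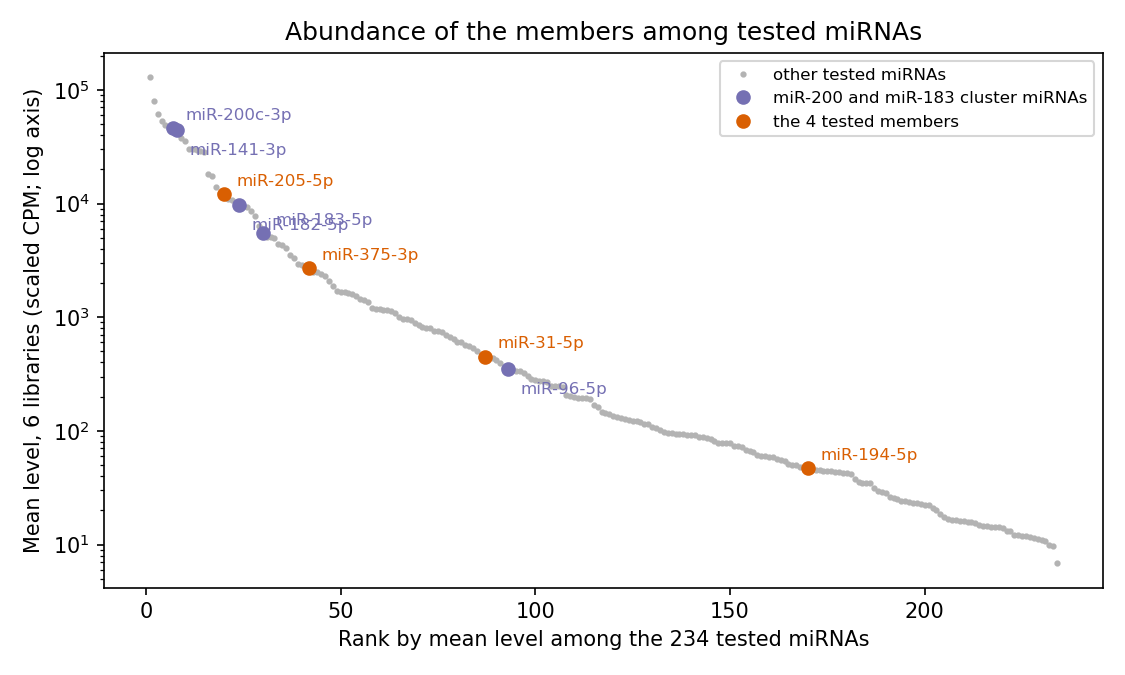
Mean level over 6 libraries (scaled CPM, log axis) against rank for the 234 tested miRNAs, with the 4 tested members in orange and miRNAs of the miR-200 and miR-183 clusters in purple. miR-205-5p and miR-375-3p sit in the upper part of the curve, miR-31-5p in the middle and miR-194-5p in the lower part.

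Between the groups, 0 of the 4 tested members reached an adjusted p under 0.05 (limma with Benjamini-Hochberg adjustment over 234 miRNAs), where 3.42% of all tested miRNAs did. At an unadjusted p under 0.05 there was 1 member, miR-375-3p, against 19.2% of all tested miRNAs. On the recovered counts edgeR called 0 members, where it called 8 of all 234 tested miRNAs. DESeq2 called 0 members as well, where it called 16 of the 234. Without Sub-fertile replicate 1, 1 of the 4 passed, miR-375-3p, where 16.7% of all tested miRNAs did (limma). The groups did not overlap for 1 of the 4, again miR-375-3p on the deposited scale, which is 25.0% and close to the 25.6% among all tested miRNAs (16.2% with Sub-fertile lower). In plain CPM, which leaves out the scaling factor, another member took its place: miR-375-3p overlapped and miR-31-5p did not, where 24.5% of all tested miRNAs did not overlap. This comparison on the other scale was chosen after the values were seen. The fitted log2 change (Sub-fertile minus Fertile) was above 0 for 2 members and below 0 for 2, with a median of 0.10, against -0.10 over all tested miRNAs. Plain CPM moved the latter median by 0.12, so changes relative to it are also given.

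Of the stratified epithelial members, miR-205-5p was the most abundant. Its levels were 12179, 11908 and 13096 in the Fertile group, against 7056, 13316 and 15430.4 in the Sub-fertile group (replicates 1 to 3). The Fertile libraries lay close together, and the Sub-fertile libraries held both the lowest value and the 2 highest values of all 6. Each of these values rested on 1130 to 9137 counts, so counting error was small beside the spread in the Sub-fertile group.

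The group means of miR-205-5p were 12394 ± 622 and 11934 ± 4355 (SD, n = 3 each). The log2 change was -0.13 (SE 0.28, 95% interval -0.78 to 0.52; limma adjusted p = 0.85). Relative to the median of all tested miRNAs the change was -0.03. Without Sub-fertile replicate 1 the sign turned and the log2 change was 0.21 (SE 0.14; limma adjusted p = 0.35). It also turned under quantile normalization (0.057), array weights (0.075) and DESeq2 (0.014), so no direction can be given. The interval with all libraries spans a 0.584-fold to a 1.43-fold level, so a modest change in either direction was not detectable with these libraries.

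Another member of surface epithelia, miR-31-5p, a miRNA of keratinocytes and other proliferating epithelia in human and mouse, was of middling abundance. Its levels were 339.9, 364 and 487 in the Fertile group against 393, 498 and 607 in the Sub-fertile group (replicates 1 to 3). The highest 2 values were Sub-fertile, but on this scale the groups overlapped, because Fertile replicate 3 lay above Sub-fertile replicate 1. In plain CPM the values were 330.0, 349 and 463 in the Fertile group against 487, 504 and 548 in the Sub-fertile group, with no overlap (log2 change 0.44; limma adjusted p = 0.41). The means were 397 ± 78.7 and 499.7 ± 106.9 (SD, n = 3 each), a log2 change of 0.33 (SE 0.26, 95% interval -0.26 to 0.92; limma adjusted p = 0.52) and of 0.42 relative to the median of all tested miRNAs. Without Sub-fertile replicate 1 it was 0.49 (SE 0.24; limma adjusted p = 0.17).

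The opposite strand, miR-31-3p, was detected at the limit of the assay. It held 5, 2 and 2 counts in the Fertile group against 0, 2 and 3 in the Sub-fertile group (replicates 1 to 3). The pooled ratio of Sub-fertile to Fertile was 0.962, with an exact 95% counting interval of 0.253 to 3.19. The 5p strand dominated in each library, as 63 to 349 counts of miR-31-5p stood against at most 5 of miR-31-3p.

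The secretory gland member miR-375-3p was low in 2 of the 3 Sub-fertile libraries. Its levels were 3320.4, 3323 and 3341 in the Fertile group against 3185, 1393 and 1681 in the Sub-fertile group (replicates 1 to 3). Sub-fertile replicates 2 and 3 held less than any Fertile library by a wide margin, whereas Sub-fertile replicate 1 lay just under the Fertile values. From 510 counts, the 95% counting interval of that library ran from 2914 to 3473 and covered all 3 Fertile levels. The gap between the groups depended on the scaling: in plain CPM Sub-fertile replicate 1 held 3942, above the 3178 to 3224 of the Fertile libraries, while Sub-fertile replicates 2 and 3 held 1409 and 1517. These levels are relative to the depth of each library and do not give absolute amounts. In these vesicle pools, fewer vesicles from a given cell type and fewer copies per vesicle also cannot be told apart.

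The means of miR-375-3p were 3328 ± 11.4 and 2086 ± 962 (SD, n = 3 each). The log2 change was -0.77 (SE 0.30, 95% interval -1.44 to -0.09), or 1.70-fold lower. It did not pass over all miRNAs (limma adjusted p = 0.20; 0.00026 to 0.45 over the alternatives). Relative to the median of all tested miRNAs it was -0.67. Without Sub-fertile replicate 1 the level was 2.17-fold lower, with a log2 change of -1.12 (SE 0.17, 95% interval -1.47 to -0.77; limma adjusted p = 0.00026). That fit leaves 2 Sub-fertile libraries and takes out the one nearest to the Fertile level.

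The Fertile values of miR-375-3p lay closer together than counting error alone gives on average. Their coefficient of variation was 0.344%, against 2.37% from Poisson counting of 1442 to 2491 counts. Their SD is thus smaller than counting error, and limma draws its estimate of the spread towards that of miRNAs of like abundance. The opposite strand, miR-375-5p, had 0 counts in every library, which allows up to 4 units in the deepest and 18.7 units in the shallowest library.

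**Figure D3:**
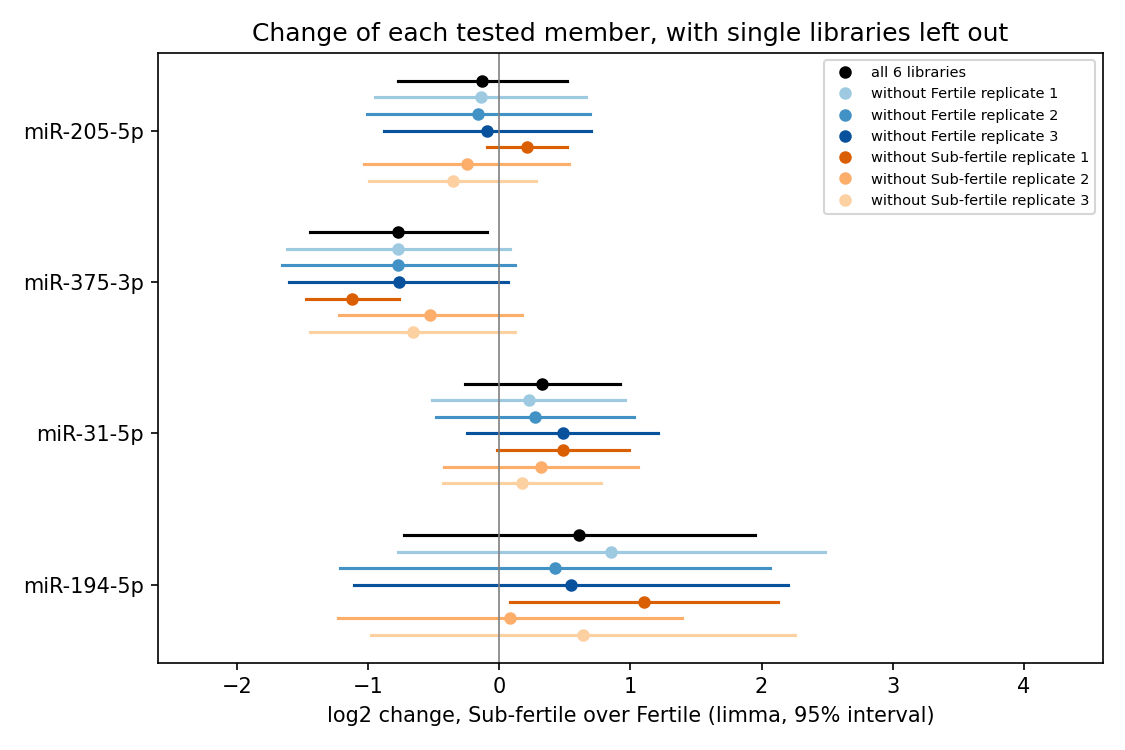
Log2 change (Sub-fertile over Fertile) of each tested member with its 95% limma interval, for all 6 libraries (black) and with single libraries left out (Fertile in blue, Sub-fertile in orange shades). The interval of miR-375-3p lies below 0 with all libraries and without Sub-fertile replicate 1, where it is narrowest. It covers 0 with any other single library left out. Without Sub-fertile replicate 1, miR-205-5p changes sign and the interval of miR-194-5p lies above 0.

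The share of each member within the sum of the 5 does not depend on library scaling. In Fertile libraries miR-205-5p made up 76.2% to 77.2% of that sum and miR-375-3p 19.7% to 21.3%. In Sub-fertile replicates 2 and 3 the corresponding shares were 87.0% and 86.8% for miR-205-5p, and 9.10% and 9.46% for miR-375-3p. Sub-fertile replicate 1 deviated the other way, with 66.2% and 29.9%. The ratio of miR-205-5p to miR-375-3p was accordingly 3.67, 3.58 and 3.92 in the Fertile group against 2.22, 9.56 and 9.18 in the Sub-fertile group (replicates 1 to 3). Fertile libraries were uniform and lay between the Sub-fertile ones. This ratio was chosen after its values were seen and was not tested.

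Against miR-200c-3p, a broad epithelial miRNA, both members could be placed on a second scaling-free footing. The level of miR-205-5p was 26.0%, 24.8% and 32.8% of that of miR-200c-3p in the Fertile group against 17.3%, 31.1% and 26.2% in the Sub-fertile group (replicates 1 to 3). Apart from Sub-fertile replicate 1, these percentages overlapped. The level of miR-375-3p was 7.09%, 6.92% and 8.36% of it in the Fertile group against 7.82%, 3.25% and 2.85% in the Sub-fertile group (replicates 1 to 3). On this footing Sub-fertile replicate 1 fell within the Fertile range of miR-375-3p, and the groups overlapped. This comparison too was chosen after the values were seen.

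**Figure D4:**
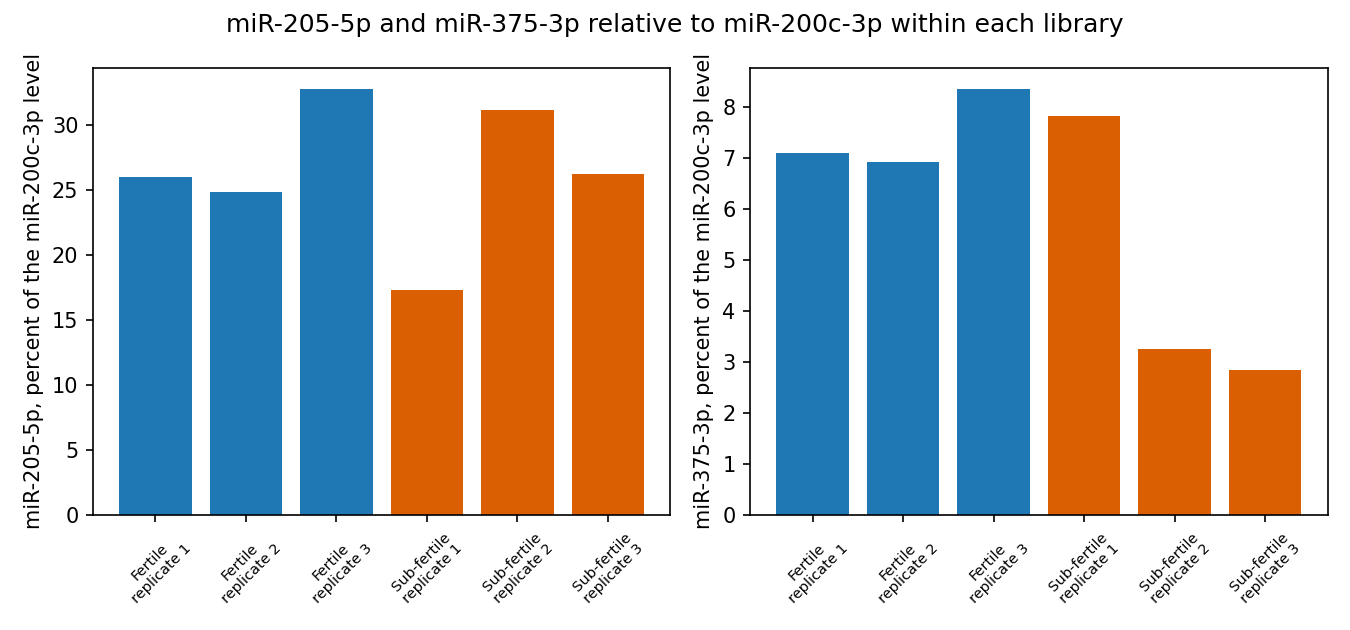
Level of miR-205-5p (left) and miR-375-3p (right) as a percentage of the miR-200c-3p level in the same library, with Fertile in blue and Sub-fertile in orange. Bars are single libraries; miR-375-3p stands at 3.25% and 2.85% in Sub-fertile replicates 2 and 3 and at 6.92% or more in the other 4.

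The gut-type members were scarce. Levels of miR-194-5p, which is made with miR-192 or miR-215 from shared primary transcripts in human, were 46.7, 25.3 and 30.1 in the Fertile group against 25.0, 106 and 48.7 in the Sub-fertile group (replicates 1 to 3). They came from 35, 13 and 13 counts in the Fertile group and from 4, 26 and 28 in Sub-fertile libraries. Sub-fertile replicate 2 was the highest, and the groups overlapped. The 95% counting interval of Sub-fertile replicate 1, 6.81 to 64.0, covered every library except Sub-fertile replicate 2.

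The means of miR-194-5p were 34.0 ± 11.2 and 60.0 ± 41.8 (SD, n = 3 each), a log2 change of 0.61 (SE 0.58, 95% interval -0.73 to 1.95; limma adjusted p = 0.60) and of 0.71 relative to the median of all tested miRNAs. Without Sub-fertile replicate 1 it was 1.11 (SE 0.48, 95% interval 0.08 to 2.13, limma adjusted p = 0.13). Without Sub-fertile replicate 2 it was 0.08 (limma adjusted p = 0.94), so the size of this difference rested on a single library with 26 counts. The strand miR-194-3p had 0 counts in all 6 libraries.

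Of miR-215-5p, which shares its seed with miR-192-5p in human, 4 counts were seen in Fertile replicate 1 and 1 count in Sub-fertile replicate 1. The remaining 4 libraries held 0, which allows 5.84 and 6.95 units in the second and the third Fertile library, and 12.3 and 5.22 in the corresponding Sub-fertile libraries. The pooled ratio of Sub-fertile to Fertile was 0.433, with an exact 95% counting interval of 0.00879 to 4.37, so no difference was detectable at this depth. Floors and counting intervals cover counting error only. The strand miR-215-3p held 2 counts, both in Fertile replicate 3, and miR-205-3p held 1 count, in Fertile replicate 1.

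In the RefSeq annotation of the mOryCun1.1 assembly, MIR215 and MIR194 are next to each other and both overlap IARS2, a protein-coding gene for a mitochondrial isoleucyl-tRNA synthetase. The pair differed in level by far, with 119 counts of miR-194-5p over all 6 libraries against 5 of miR-215-5p. The log2 ratio of miR-215-5p to miR-194-5p was -4.20 ± 1.12 in the Fertile group against -4.74 ± 2.57 in the Sub-fertile group (SD, n = 3 each). The exact permutation test, two-sided, gave p = 0.8 for this 1 ratio, whose difference (Sub-fertile minus Fertile) was -0.54. With Sub-fertile replicate 1 left out, which held the 1 Sub-fertile count of miR-215-5p, the difference was -1.99 (exact permutation p = 0.1). Such a test cannot go below 0.1 here, and with 5 counts of miR-215-5p the ratio is set largely by the pseudocount of 1. Of the other matched genes, MIR205 overlaps a long non-coding RNA gene, MIR375 lies between CFAP65 and CRYBA2, and MIR31 follows IFNE.

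Profiles most like those of the members were found among miRNAs of other families. By root mean square difference of centred log2 levels over the 6 libraries, let-7a-5p (0.07) and miR-1911-5p (0.10) were nearest to miR-205-5p, against a median of 0.56 over 233 miRNAs. Like miR-205-5p, let-7a-5p had its lowest level in Sub-fertile replicate 1, at 48869 against 73851 to 99289 in the other libraries. Nearest to miR-375-3p were miR-582-3p (0.13) and miR-532-5p (0.16), against a median of 0.71. Levels of miR-582-3p were 364, 284 and 349.9 in the Fertile group against 325, 123 and 165 in the Sub-fertile group (replicates 1 to 3). This is the same arrangement, with Sub-fertile replicate 1 beside the Fertile libraries. Nearest to miR-31-5p were miR-1264-3p (0.11) and let-7f-5p (0.12), against a median of 0.59. For miR-194-5p the nearest, miR-411-5p (0.40) and miR-34a-5p (0.41), were less close, against a median of 0.89. These distances describe 6 libraries, and miRNAs compared in the same libraries share their depth and scaling factors.

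Other epithelial miRNAs, the miR-200 and miR-183 clusters, gave a reference for the members. Of the 8 listed 5 had a row and were tested, and 0 passed an adjusted p of 0.05 in either direction (limma), where 3.42% of all tested miRNAs did. At an unadjusted p under 0.05 (limma) there was 1 of the 5, against 19.2% of all tested miRNAs. The median log2 change of the 5 was 0.06. The smallest p belonged to miR-182-5p. Its levels were 10545, 12484 and 11124 in the Fertile group against 7038, 8206 and 8592 in the Sub-fertile group (replicates 1 to 3), a log2 change of -0.52 (SE 0.17; limma adjusted p = 0.12). Next was miR-183-5p of the same cluster, at 5834 to 6622 in the Fertile group against 4053 to 5659 in the Sub-fertile group (log2 change -0.40, SE 0.18; limma adjusted p = 0.28). The other member of that cluster, miR-96-5p, went the other way, at 271 to 321 in the Fertile group against 323 to 459 in the Sub-fertile group (log2 change 0.47, SE 0.24; limma adjusted p = 0.33). The groups did not overlap for these 3 of the 5, on the deposited scale and in plain CPM, beside the 25.6% and 24.5% among all tested miRNAs. With Sub-fertile replicate 1 left out, the log2 changes were -0.44 for miR-182-5p (limma adjusted p = 0.050), -0.29 for miR-183-5p and 0.39 for miR-96-5p. In that fit 0 of the 5 passed, where 16.7% of all tested miRNAs did. With array weights, where 19.2% of all tested miRNAs passed, miR-182-5p passed (limma adjusted p = 0.034).

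**Figure D5:**
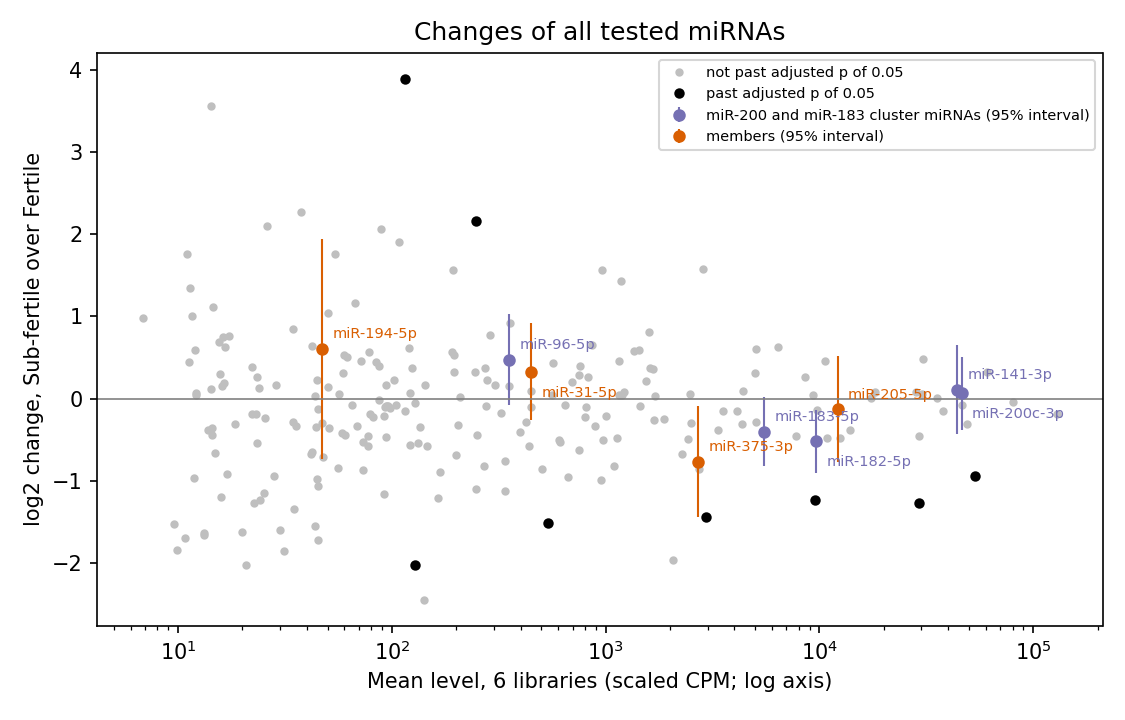
Log2 change (Sub-fertile over Fertile) against mean level (scaled CPM, log axis) for the 234 tested miRNAs, with the 8 past an adjusted p of 0.05 in black. Members (orange) and miRNAs of the miR-200 and miR-183 clusters (purple) carry 95% intervals, and among the members the interval of miR-375-3p alone lies clear of 0. In plain CPM (not drawn) that interval covers 0.

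Markers of other cell types were read beside these values. The neural list, which bears on miR-375-3p as a neuroendocrine miRNA, held 2 miRNAs. With miR-124-3p at 0 in every library, its summed level was that of miR-9-5p alone. This level was 144 to 251 in the Fertile group against 337, 163 and 81.8 in the Sub-fertile group (replicates 1 to 3). Summed levels of 5 leukocyte miRNAs were 252 to 595 in the Fertile group against 324 to 699 in Sub-fertile vesicles. Those of 4 striated muscle miRNAs were 11.6 to 60.0 and 181 to 268, with miR-133a-3p and miR-133b-3p at 0 throughout. Those of 4 stromal miRNAs, of which miR-145-5p and miR-214-3p were at 0, were 95.4 to 162 and 117 to 237. Those of 3 erythroid miRNAs, of which miR-144-3p was at 0, were 12.0 to 37.1 and 6.24 to 20.4. The testis X-linked list had 7924 to 10226 and 7094 to 13722, and the hepatocyte miR-122-5p reached at most 5.84. The summed levels of the striated muscle list did not overlap between the groups, nor did those of 1 miRNA of that list, miR-206-3p, at 9.27 to 27.2 in the Fertile group against 175 to 252 in the Sub-fertile group. The other detected muscle miRNA, miR-1-3p, overlapped, at 50.7, 1.95 and 2.32 in the Fertile group against 6.24, 16.3 and 15.7 in the Sub-fertile group (replicates 1 to 3). The summed levels of the other lists overlapped between the groups on the deposited scale. Within them miR-142-3p (leukocyte) did not overlap, at 32.0 to 51.0 in the Fertile group against 53.1 to 156 in the Sub-fertile group. Nor did stromal miR-143-3p (0 to 1.95 against 12.3 to 56.2, from at most 9 counts) or miR-449a-5p (438 to 570 against 618 to 3909). Among all tested miRNAs, 25.6% did not overlap. In the striated muscle list 1 of 2 tested passed an adjusted p under 0.05 (limma), where 3.42% of all tested miRNAs did. The part of these cells in the levels of miR-375-3p and the other members was not tested.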

How the data were processed

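Small RNA libraries (QIAseq miRNA kit) were made from vesicles isolated by ultracentrifugation and size exclusion chromatography, per the labels' protocols. The submitters' processing notes name bcl2fastq, Bowtie2 2.2.2, DESeq2 and build OryCun2.0, with no role or order. The authors deposited a normalized signal, which they named CPM, for each mature miRNA. All values (100%) were whole multiples of the smallest value above 0 in their library, within 1.46e-11, so whole counts were recovered. The implied scaling factors, 0.902 to 1.24, equalled edgeR's TMM factors. No source used here says if unique molecular identifiers were used in counting.

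The test was limma 3.58.1 (R 4.3.3) with a mean-variance trend, two-sided, on log2(value + 1) over all 234 miRNAs that had 10 units or more in 3 or more libraries, adjusted by Benjamini-Hochberg. Fold changes on this scale understate those of low miRNAs. Alternatives were pseudocounts, filters, scalings, limma settings, a replicate block, single libraries left out, and edgeR 4.0.16 and DESeq2 1.42.0 on recovered counts; edgeR called 8 of all miRNAs. Counting intervals are exact at 95%, and a 0 allows 3 counts. Libraries of a group differed beyond counting noise (chi-square per degree of freedom at least 20.3). The code was tested on simulated data.

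Members, lists and tests were chosen with earlier results of these data known. Named miRNAs are all members, their opposite strands, the other epithelial list (2 of smallest p) and the 2 profiles nearest to each tested member. RefSeq gene order matched 5 of 7 hairpins and served for neighbourhood alone, since its assembly is not the build of the study.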

Additional observations from a re-analysis of the deposited data

How the results depend on the processing

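Across the alternatives, the log2 change kept its sign for miR-375-3p and miR-31-5p (22 settings each) and for miR-194-5p (21, as a filter at 100 left it out). None of the last 2 passed in any. The unadjusted limma p of miR-375-3p was not under 0.05 in plain CPM, median-of-ratios scaling, quantile normalization or without the 5 most abundant miRNAs. The same held for limma without a trend, edgeR and DESeq2. Nor was its limma p under 0.05 with any single library left out other than Sub-fertile replicate 1. Array weights made miR-375-3p pass (-1.11, limma adjusted p = 0.00054), as did leaving Sub-fertile replicate 1 out. The weights of Sub-fertile replicates 1 to 3 were 0.188, 1.78 and 0.538, against 1.60 to 2.06 in the Fertile group. The Sub-fertile side of that fit thus rested most on replicate 2, which held the lowest miR-375-3p level. Over single libraries left out, the log2 change of miR-375-3p ranged from -1.12 to -0.52. The number of members past the threshold was thus 1 of the 4 with array weights, where 19.2% of all tested miRNAs passed. It was 0 to 1 with single libraries left out, and 1 without Sub-fertile replicate 1, where 16.7% of all tested miRNAs passed. The sign of miR-205-5p turned under quantile normalization (0.057), array weights (0.075), DESeq2 (0.014) and without Sub-fertile replicate 1 (0.21), with -0.35 to 0.21 over libraries left out; the cause was not tested. The log2 ratio of miR-215-5p to miR-194-5p went from -0.54 to 0.10 without Fertile replicate 1, which held 4 of its 5 counts, and to 0.46 without Sub-fertile replicate 2 (range -1.99, without Sub-fertile replicate 1, to 0.46).

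The count over all miRNAs, 8, became 14 with a filter at 100 (131 tested), 5 with quantile normalization, 1 without a trend, 45 with array weights and 16 with DESeq2. It was 3 to 39 with single libraries left out: 3 without any 1 of the Fertile libraries, 39 without Sub-fertile replicate 1 and 5 without Sub-fertile replicate 2. With the replicate block, 0 passed (limma; 43 at an unadjusted p under 0.05), and miR-375-3p had an adjusted p of 0.23. Deviations of libraries that share a number correlated at 0.045, -0.12 and 0.10, so the numbers were not taken as pairs. Depth limits miR-194-5p and miR-215-5p most.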
